A study of Mus musculus with 17 samples.

Results

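C1ql2-positive neurons of the anterior thalamic nuclei were described here in 2 classes, C1ql2-high and C1ql2-low, and set against C1ql2-zero neurons of the same dissections. Members were wells of a single-cell plate table with an animal number, at least 1000 mouse genes counted, at least 1 Slc17a6 count and at least 1 C1ql2 count. The wells were split at a C1ql2 level of 200 CPM (counts per 1000000 mouse counts of the well). Of 840 Slc17a6-positive wells, 90 held a C1ql2 count. C1ql2-high wells numbered 49 (9, 12 and 28 in animals 1, 2 and 3), C1ql2-low wells 41 (4, 8 and 29) and C1ql2-zero wells 750 (83, 280 and 387). The C1ql2 counts themselves chose the members, so the C1ql2 and Slc17a6 levels below are a description with no test.

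The anterior thalamic nuclei comprise the anterodorsal, anteroventral and anteromedial nuclei, relay nuclei that link the hippocampal formation and the mammillary bodies with cingulate and retrosplenial cortex. The anterodorsal nucleus is known for head-direction cells. C1ql2 encodes a secreted C1q-like protein that organizes glutamatergic synapses, and Slc17a6 and Slc17a7 encode the vesicular glutamate transporters VGLUT2 and VGLUT1, which load glutamate into synaptic vesicles. Most thalamic relay neurons rely on Slc17a6.

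The cells came from wild-type mice of the B6 background, were dissected out of acute brain slices and picked by hand. All 3 classes share that genotype and handling, and the labels name no treatment. Ages were not given in the sources used here. Visium arrays of 3 wild-type brain sections, posterior sections 2 and 6 and anterior section 5, gave a second measurement in other tissue. The well table spanned 1344 wells on 14 plates, and 912 of 1216 wells with an animal number reached 1000 genes. Depth ran from 2046 to 237069 counts per Slc17a6-positive well, and animal 2 was the shallowest, with 3063593 counts in all, against 6079199 in animal 1 and 28589918 in animal 3. The labels tie no animal to a litter or day. The animal was a block in the tests, so a p-value from wells reflects only how class differences vary across these 3 animals. The section was a block for spots, so a p-value there reflects only how class differences vary across the 3 sections. The labels name no animal for a section.

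Because C1ql2 defines the classes, Sncg rose in high wells and Gal was called in both C1ql2-positive classes against zero wells, their proximal promoters are shown first, from 250 bases before to 50 bases after the annotated start (RefSeq, GRCm38.p6). All 3 genes were found in that table. Capitals mark matches to the CRE half-site TGACG, read on both strands.
C1ql2 (chr1:120340332-120340631, + strand): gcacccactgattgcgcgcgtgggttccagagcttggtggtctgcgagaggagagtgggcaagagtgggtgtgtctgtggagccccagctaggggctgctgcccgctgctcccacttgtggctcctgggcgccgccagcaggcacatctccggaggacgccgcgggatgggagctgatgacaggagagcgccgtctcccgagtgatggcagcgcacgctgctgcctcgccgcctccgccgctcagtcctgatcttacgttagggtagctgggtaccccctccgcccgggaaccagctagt
Sncg (chr14:34374620-34374919, - strand): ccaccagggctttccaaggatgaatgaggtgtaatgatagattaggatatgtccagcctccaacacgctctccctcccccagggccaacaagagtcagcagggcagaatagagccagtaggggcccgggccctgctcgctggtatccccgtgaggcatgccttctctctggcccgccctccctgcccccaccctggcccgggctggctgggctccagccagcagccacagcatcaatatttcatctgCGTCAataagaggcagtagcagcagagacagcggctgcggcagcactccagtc
Gal (chr19:3414495-3414794, - strand): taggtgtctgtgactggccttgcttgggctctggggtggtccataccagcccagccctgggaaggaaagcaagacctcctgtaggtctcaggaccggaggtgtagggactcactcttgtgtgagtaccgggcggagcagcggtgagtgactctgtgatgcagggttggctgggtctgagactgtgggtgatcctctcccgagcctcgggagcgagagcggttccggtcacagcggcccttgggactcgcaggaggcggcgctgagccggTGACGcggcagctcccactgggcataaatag
The half-site stood 1 time in the Sncg window, 1 time in the Gal window and not in the C1ql2 window, and 20.8% of the 32851 promoters in the table held it. The TCF/LEF core CTTTGA, also read on both strands and held by 16.0% of promoters, was in none of the 3 windows. Tcf7l2, a thalamic TCF/LEF factor, was counted in nearly all wells of every class. It was found in 38 of the 39 wells with the most C1ql2, 41 of 41 low wells and 736 of 750 zero wells. A match or its absence in these letters says nothing about binding.

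The C1ql2-high wells held nearly all of the C1ql2 RNA. Summed over wells, C1ql2 stood at 822, 1127 and 1324 CPM in the high wells of animals 1, 2 and 3, at 17.2, 124 and 56.3 CPM in their low wells, and at 0 in the zero wells by definition. High wells held 97.4% of the 5704 C1ql2 counts. A single high well had between 223 and 2341 CPM (median 1151), from 2 to 555 counts, and a single low well between 5.35 and 199 CPM (median 47.0), from 1 to 26 counts. Of the low wells, 20 had 1 C1ql2 count and 7 had 2, and all 14 with 3 or more came from animal 3. Just outside the split lay low wells at 192 and 199 CPM (8 and 2 counts), and just inside it high wells at 223, 236 and 237 CPM (13, 3 and 2 counts).

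**Figure D1:**
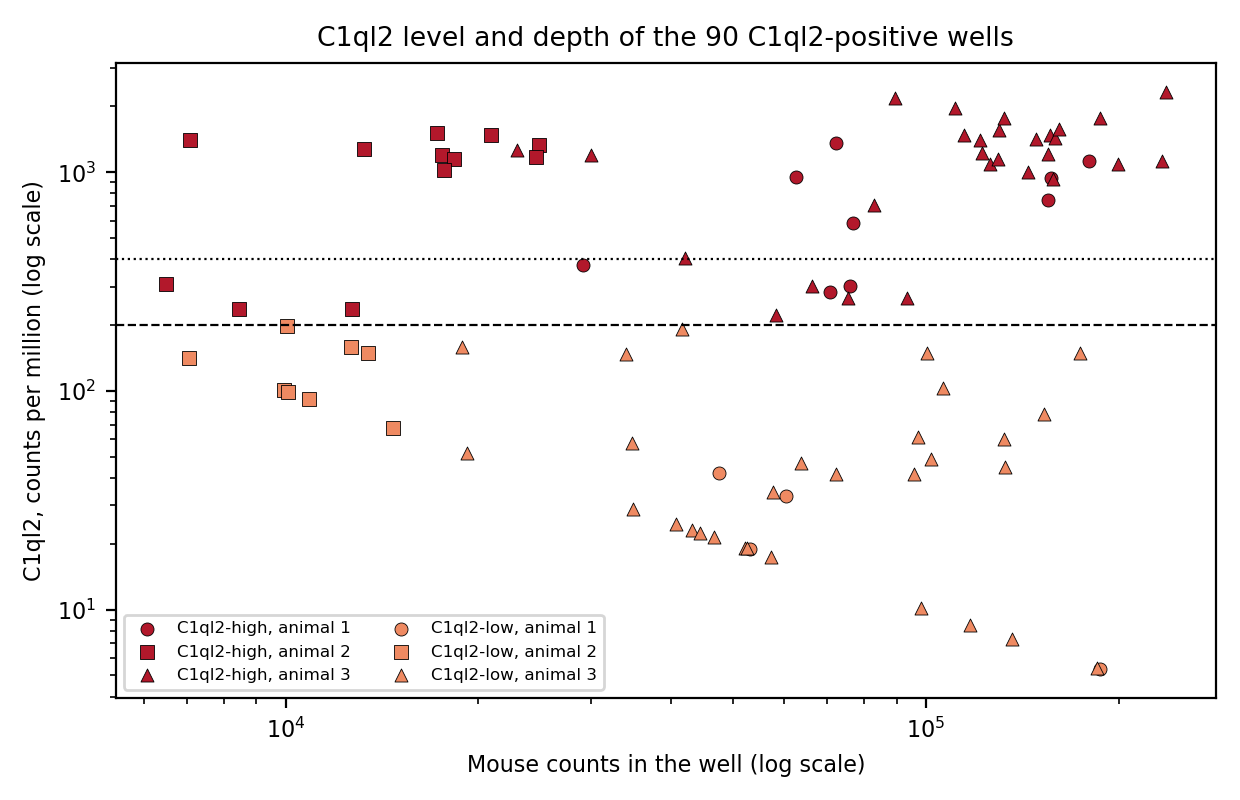
C1ql2 level (CPM, log scale) against the total mouse counts of each C1ql2-positive well (log scale). Each point is 1 well, red for C1ql2-high and orange for C1ql2-low, with a shape for each animal, and the dashed and dotted lines stand at 200 and 400 CPM. The 2 classes meet at the dashed line between 199 and 223 CPM, and animal 2 lies furthest to the left.

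High wells were also deeper. Their median total was 1.55, 1.93 and 2.55 times that of the zero wells in animals 1, 2 and 3, and the ratio for low wells was 1.16, 1.16 and 1.28. High wells made up 9.38%, 4.0% and 6.31% of the Slc17a6-positive wells of animals 1, 2 and 3, with exact 95% intervals of 4.38 to 17.1%, 2.08 to 6.88% and 4.23 to 8.99%. Low wells made up 4.17%, 2.67% and 6.53% (exact intervals 1.15 to 10.3%, 1.16 to 5.19% and 4.42 to 9.25%). These intervals cover counting error only. Among 72 Slc17a6-zero wells, 3 held a C1ql2 count (4.17%, exact interval 0.868 to 11.7%, median depth 15653 counts against 30407 in Slc17a6-positive wells), and 90 of 840 Slc17a6-positive wells held one (10.7%, exact interval 8.7 to 13%). The intervals overlap. With every well thinned to 5000 counts, C1ql2 was still counted in 9 of 9, 12 of 12 and 25 of 28 high wells of animals 1, 2 and 3, and in 1 of 4, 5 of 8 and 6 of 29 low wells. Thinning left out 45 zero wells of animal 2 and 2 of animal 3. The classes were split on this level, and 1 count in 5000 equals the split, so these counts follow from the rule and are given as a description.

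Of the 49 high wells, 25 held at least 3 of the 4 anterodorsal markers. That list includes C1ql2, which every high well held by the rule, so this count is a description and no support for the label. The remaining markers, Chrm1, Slc17a7 and Serpinb7, were counted in 22, 40 and 12 of the 49 high wells. Chrm1, the M1 muscarinic acetylcholine receptor, was counted in 22 of the 39 wells with at least 400 C1ql2 CPM, in 0 of the 10 wells between 200 and 400, in 0 of the 41 low wells and in 10 of the 750 zero wells. Slc17a7 was counted in 36 of 39, 4 of 10, 9 of 41 and 102 of 750 of these wells. Serpinb7, an intracellular serine protease inhibitor listed as an anterodorsal marker, was counted in 12 of the 39 wells and in none of the 10 or of the 41. The median depth was 121250 counts in the 39 wells and 62423 in the 10. Thinned to 5000 counts, Chrm1 was found in 10 of 49 high, 0 of 41 low and 0 of 703 zero wells, and Slc17a7 in 17 of 49, 3 of 41 and 28 of 703. The upper limit that 0 counts allow for Chrm1 over the low wells is 1.08 CPM, and the high wells were at 75.7 CPM, at least 70.2-fold higher.

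Car4 and Ccdc141, 2 of the 4 anteroventral markers, were counted in most low wells, and the test of their levels is given with the low wells below. Car4, a membrane-bound carbonic anhydrase listed as an anteroventral marker, was counted in 18 of 49 high wells, 34 of 41 low wells and 299 of 750 zero wells. Ccdc141, of the same list, was counted in 5 of 49 high, 29 of 41 low and 301 of 750 zero wells. Npsr1, also of that list, was counted in 1 of 49 high, 7 of 41 low and 99 of 750 zero wells. Col27a1, the remaining marker of that list, was counted in most wells of every class. It was found in 45 of 49 high, 38 of 41 low and 487 of 750 zero wells, and so did not separate high from low wells. At least 3 of the 4 anteroventral markers were found together in 5 of 49 high, 26 of 41 low and 183 of 750 zero wells. In thinned wells Car4 was found in 5 of 49 high, 19 of 41 low and 175 of 703 zero wells, the same order as without thinning. The wells between 200 and 400 C1ql2 CPM held Car4 in 8 of 10, close to the 34 of 41 low wells, whereas 10 of the 39 wells above 400 held it.

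**Figure D2:**
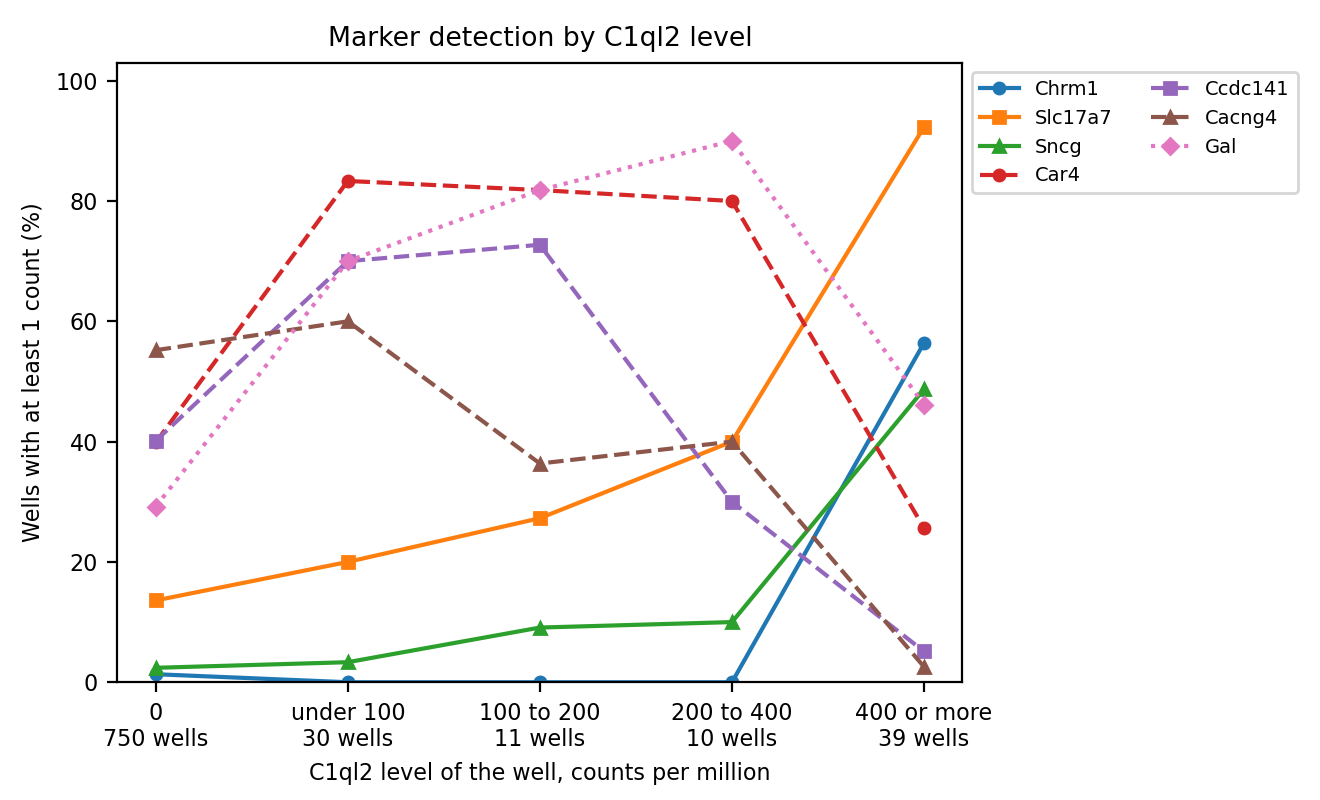
Share of wells with at least 1 count (percent) of 7 marker genes in bins of the C1ql2 level (CPM), with the number of wells in each bin under its name. Chrm1, Slc17a7 and Sncg are most often found in the 39 wells of 400 or more, while Car4 and Gal are most often found between those wells and the wells at 0. Bins differ in depth, with a median of 121250 counts per well in the bin of 400 or more and 27226 in the bin at 0.

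The first comparison asked which other genes set C1ql2-high neurons apart from C1ql2-zero neurons. Counts were summed per animal and class and tested in edgeR's quasi-likelihood F test with the animal as a block. P-values were Benjamini-Hochberg adjusted over 12074 genes, and a gene was called under an adjusted p of 0.05. In high wells 82 genes rose (0.679% of those tested) and 79 fell (0.654%), 161 in all (1.33%), while 1383 genes had an unadjusted p under 0.05. The median log2 fold change over all genes was -0.27. All 161 genes changed in the same direction in 3 of 3 animals. The calls were made from these same animals, so this is a description and adds no support. The count rested on animals 2 and 3, since leaving out animal 3 left 1 gene and leaving out animal 2 left 20, while leaving out animal 1 gave 957. It was 80 against zero wells at least as deep as the median low well of their animal, called deeper zero wells below, and 301 with the wells of 200 to 400 CPM left out of the high class.

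Sncg, Megf11 and Serpinf1 rose in high wells and were low in the other classes. Sncg, which encodes gamma-synuclein, a protein of axon terminals, was at 167, 47.6 and 386 CPM in the high wells of animals 1, 2 and 3, against 0, 0 and 2.13 CPM in low wells and 2.68, 0.359 and 11.2 CPM in zero wells. Its log2 fold change of high over zero was 5.83 ± 0.69 (SE, n = 3 animals, edgeR adjusted p = 0.00049), and it passed without animal 1 and without animal 2 but not without animal 3 (6.31 on the log2 scale, adjusted p = 0.607). Every high sum lay above every zero sum, and groups did not overlap in this way for 30.3% of all genes in either direction. Megf11, a transmembrane protein with EGF-like repeats that spaces neurons of the same type in the mouse retina, was at 148, 164 and 118 CPM in high wells, 0, 0 and 4.27 CPM in low wells and 4.95, 2.15 and 5.58 CPM in zero wells (log2 fold change 5.21 ± 0.85, edgeR adjusted p = 0.00593). Serpinf1, the secreted pigment epithelium-derived factor, was at 110, 153 and 183 CPM in high wells, 0, 0 and 3.84 CPM in low wells and 8.86, 1.79 and 4.17 CPM in zero wells (5.09 ± 0.87 on the log2 scale, adjusted p = 0.00829).
The rise of these 3 genes covered all 3 animals, with groups that did not overlap. Within the high class it lay in the 39 wells of at least 400 C1ql2 CPM. Sncg was counted in 19 of them, Megf11 in 33 and Serpinf1 in 31. In the 10 wells of 200 to 400 CPM, Sncg was counted in 1, Megf11 in 0 and Serpinf1 in 0. By animal, Sncg was counted in 3 of 9, 2 of 12 and 15 of 28 high wells. Hspb8, a small heat shock protein, was at 20.5, 95.2 and 46.1 CPM in high wells and 0.206, 1.08 and 2.72 CPM in zero wells (log2 fold change 5.67 ± 1.35, adjusted p = 0.0453). Gulo, which in the mouse makes the last step of vitamin C synthesis, was at 101, 31.7 and 8.89 CPM in high wells and 0.618, 0 and 0.0439 CPM in zero wells (7.54 ± 1.54, adjusted p = 0.0246). Padi1, a peptidylarginine deiminase, was at 69.4, 15.9 and 50.4 CPM in high wells and 0, 0.359 and 0.264 CPM in zero wells (7.66 ± 1.69, adjusted p = 0.0365).
Neither Padi1 nor Gulo gave a count in the 41 low wells.

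Of the 24 vesicle release genes tested, Syt2 and Cplx1 rose and Syt5 fell, where 1.33% of all genes tested were called, and the list median was a log2 fold change of 0.09. Syt2, the calcium sensor of fast release, was at 11.4, 122 and 88.0 CPM in high wells and 0.206, 6.46 and 2.46 CPM in zero wells (4.96 ± 1.12, edgeR adjusted p = 0.0349). Cplx1, a complexin that clamps and times fusion, was at 1127, 1947 and 2235 CPM in high wells and 684, 1281 and 1087 CPM in zero wells (0.85 ± 0.20, adjusted p = 0.0376). Syt5 stood at 0, 0 and 3.44 CPM in high wells and 71.3, 50.3 and 69.7 CPM in zero wells. The neurofilament light chain gene Nefl was at 879, 1376 and 1064 CPM in high wells and 368, 643 and 542 CPM in zero wells (1.17 ± 0.20, adjusted p = 0.00829), the only one of 4 neurofilament genes tested that passed.

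**Figure D3:**
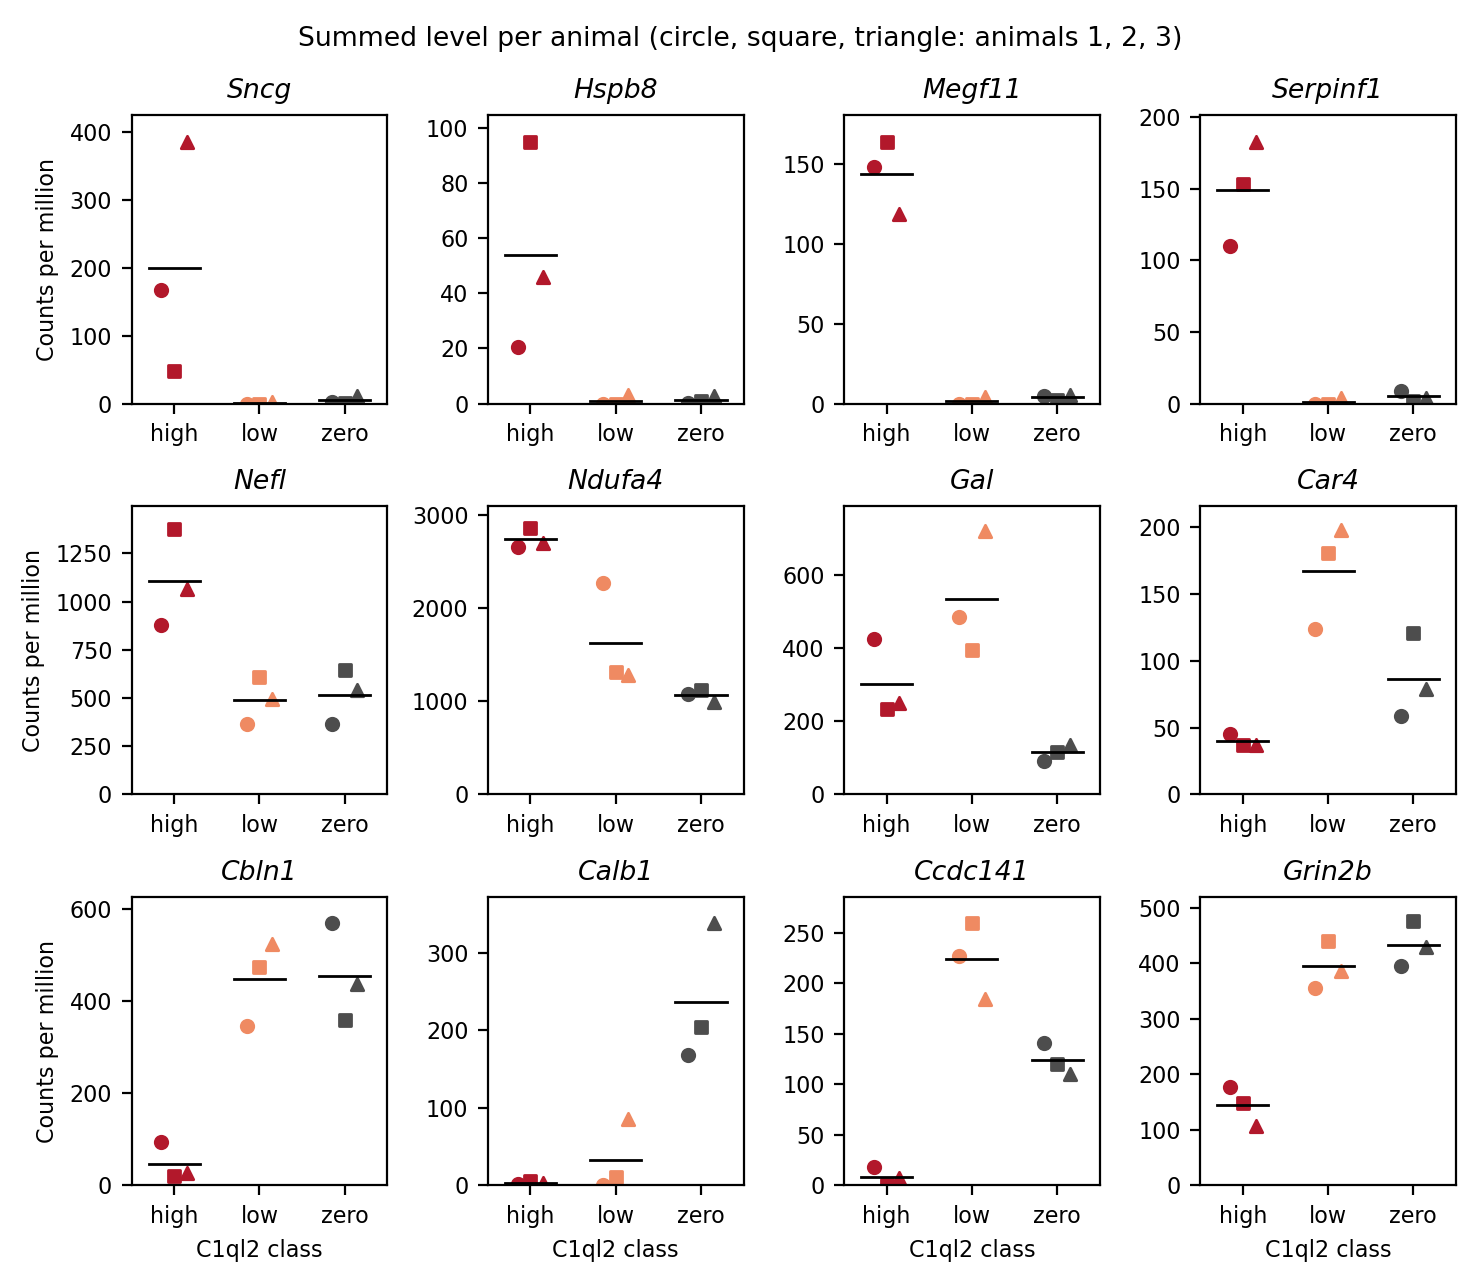
Level (CPM) of 12 genes summed over the wells of a class in each animal, with C1ql2-high, C1ql2-low and C1ql2-zero wells from left to right. Points are animals (circle 1, square 2, triangle 3), horizontal lines are means over 3 animals and every axis starts at 0. Sncg, Hspb8, Megf11 and Serpinf1 are highest in C1ql2-high wells, Gal is above its C1ql2-zero level in both C1ql2-positive classes, and Cbln1, Ccdc141 and Grin2b are lower in C1ql2-high wells than in the other 2 classes.

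Of 31 nuclear genes of oxidative phosphorylation tested, 14 rose in high wells, 17 were not called and 0 fell, where 0.679% of all genes tested rose. All 31 had a positive log2 fold change, and their median was 0.99, against -0.27 over all genes. The low wells were shifted the same way by less. In low over zero wells 0 were called, 27 were positive and the median was 0.31, against -0.40 over all genes. In high over low wells 2 rose, where 0.323% of all genes rose. There 29 were positive and the median was 0.54, against 0.14 over all genes. Ndufa4, a subunit tied to cytochrome c oxidase, was at 2657, 2857 and 2695 CPM in high wells, 2267, 1318 and 1281 CPM in low wells and 1074, 1125 and 995 CPM in zero wells. It differed from zero wells by 1.42 ± 0.19 on the log2 scale (edgeR adjusted p = 0.00158). Cox4i1, a cytochrome c oxidase subunit, was at 3736, 3312 and 3775 CPM in high wells and 1559, 1652 and 1572 CPM in zero wells (1.22 ± 0.19, adjusted p = 0.00472).
Depth differed between the classes, so this group was also read at other depths. Thinned to 5000 counts per well, 18 of the 31 rose and the median was 1.04, and against the deeper zero wells 4 rose with a median of 0.81. Counts of genes encoded in the mitochondrion took a median of 1.59%, 2.50% and 2.44% of a high well in animals 1, 2 and 3, against 2.25%, 3.31% and 2.96% of a zero well. Without animal 3 none of the 31 was called, and the median was 0.94.
Of 30 cytosolic ribosomal protein genes 0 were called, 27 were positive and the median was 0.52. Of 18 cholesterol synthesis genes Fdft1, which makes squalene, and Msmo1, which oxidizes methylsterols, rose, where 0.679% of all genes rose, 16 were positive and the median was 1.46. Neither was called without animal 2 or without animal 3.

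Cbln1, Calb1, Cacng4, Ccdc141, Tnnt1, Ramp3 and Foxp1 were among the genes that fell in high wells. Cbln1, a cerebellin that joins presynaptic neurexins to postsynaptic receptors, was at 93.2, 21.2 and 27.5 CPM in high wells, 345, 473 and 523 CPM in low wells and 569, 360 and 437 CPM in zero wells. Its log2 fold change of high over zero was -3.26 ± 0.41 (edgeR adjusted p = 0.000919). It was counted in 4 of the 39 wells with at least 400 C1ql2 CPM and in 9 of the 10 wells of 200 to 400. Of 13 C1q-like and cerebellin ligands and receptors tested, Cbln1 and the neurexin gene Nrxn3 fell, and none rose. Of all genes tested, 0.654% fell. Nrxn3 was at 117, 52.9 and 108 CPM in high wells and 316, 327 and 310 CPM in zero wells (-1.68 ± 0.34, adjusted p = 0.0186).
Calb1, the calcium buffer calbindin, was at 2.27, 5.29 and 2.58 CPM in high wells, 0, 11.3 and 85.3 CPM in low wells and 168, 204 and 338 CPM in zero wells. Against zero wells it fell by 6.74 on the log2 scale in high wells (SE 0.97, adjusted p = 0.00255). Cacng4, an AMPA receptor auxiliary subunit, was at 22.7, 5.29 and 6.02 CPM in high wells and 240, 94.4 and 149 CPM in zero wells (-4.09 ± 0.66, adjusted p = 0.00593).
Ccdc141, named above, was at 18.2, 0 and 6.88 CPM in high wells and 141, 120 and 110 CPM in zero wells (-3.65 ± 0.58, adjusted p = 0.00593). Tnnt1, a troponin of slow skeletal muscle that marks many thalamic neurons, was at 80.7, 26.5 and 7.45 CPM in high wells and 369, 121 and 194 CPM in zero wells (-2.84 ± 0.57, adjusted p = 0.0185).
Ramp3, a receptor activity-modifying protein for calcitonin-family peptides, had 0 counts in all high wells, against 56.5, 218 and 135 CPM in zero wells, at least 198-fold lower (3 counts over the class as the floor, adjusted p = 0.00593). Foxp1, a forkhead transcription factor, was at 14.8, 21.2 and 24.4 CPM in high wells and 278, 154 and 244 CPM in zero wells (-3.58 ± 0.67, edgeR adjusted p = 0.0122). Hlf and Rreb1 were the other transcription factors that fell among 32 tested, where 0.654% of all genes tested fell. Tcf7l2 stood at 723, 402 and 432 CPM in high wells and 862, 730 and 826 CPM in zero wells and was not called (-0.58 ± 0.25, adjusted p = 0.359).
Cacna1g, Kcnq3 and Grin2b, all of channels or receptors, fell as well. Cacna1g, a T-type calcium channel of burst firing, was at 109, 52.9 and 91.2 CPM in high wells and 414, 234 and 273 CPM in zero wells (-1.82 ± 0.34, adjusted p = 0.0116). Kcnq3, an M-current potassium channel, was at 51.2, 15.9 and 28.1 CPM in high wells and 213, 238 and 241 CPM in zero wells (-2.66 ± 0.51, adjusted p = 0.0128). Grin2b, an NMDA receptor subunit, was at 177, 148 and 107 CPM in high wells and 395, 477 and 430 CPM in zero wells (-1.54 ± 0.28, adjusted p = 0.0116).
Of 28 voltage-gated potassium channels tested, Kcnq3 was the one that fell and none rose, where 0.654% of all genes tested fell.

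Oligodendrocyte genes moved with the comparison. Cldn11 and Mobp, which mark oligodendrocytes, fell in high wells. The 7 oligodendrocyte markers summed to 69.4, 37.0 and 57.3 CPM in high wells, 57.5, 33.8 and 61.9 CPM in low wells and 2374, 654 and 748 CPM in zero wells. At least 3 of these markers were found together in 2 high wells, 0 low wells and 23 zero wells. With those wells left out, 145 genes were called, 142 of them shared with the 161. With every well that held 3 markers of any other cell type left out (5 high, 9 low and 193 zero wells), 35 genes were called, all of them shared. Most of the wells left out there, 3 high, 9 low and 170 zero wells, held 3 of the 8 markers of cortical and hippocampal excitatory neurons, a list that includes Camk2a. That list summed to 371, 249 and 192 CPM in high wells, 572, 394 and 473 CPM in low wells and 577, 486 and 456 CPM in zero wells, with Neurod6, Neurod2 and Emx1 at 0 in high wells. The part of these markers in the counts of called genes was not tested.

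The next comparison set high wells against low wells, and it shares the high wells with the comparison above. Of 12074 genes, 39 rose (0.323%) and 38 fell (0.315%), 77 in all (0.638%), with 1344 at an unadjusted p under 0.05 and a median log2 fold change of 0.14 over all genes. Leaving out animal 3 left 1 gene and leaving out animal 2 left 16, while leaving out animal 1 gave 757, and the count was 196 with the wells of 200 to 400 CPM left out. Without wells that held 3 markers of another cell type it was 39, and with the deeper zero wells in the same fit 45.
Sncg differed by 8.07 ± 0.99 on the log2 scale (edgeR adjusted p = 0.00125) and Megf11 by 5.98 ± 1.03 (adjusted p = 0.013), with the levels given above. Slit2, a secreted axon guidance ligand, was at 102, 21.2 and 39.0 CPM in high wells, 0, 0 and 0.427 CPM in low wells and 29.3, 7.54 and 7.82 CPM in zero wells (high over low 6.98 ± 1.56, adjusted p = 0.0497). Cacna1e, an R-type calcium channel, was at 85.3, 26.5 and 47.6 CPM in high wells, 0, 0 and 0.853 CPM in low wells and 56.7, 13.3 and 22.2 CPM in zero wells (6.35 ± 1.38, adjusted p = 0.0456).
Lypd1, a modulator of nicotinic receptors, was at 131, 10.6 and 35.8 CPM in high wells, 2.87, 0 and 0 CPM in low wells and 53.0, 48.5 and 43.4 CPM in zero wells (6.65 ± 1.46, adjusted p = 0.0469). For Slit2, Cacna1e and Lypd1 the low sum of each animal lay below its high and zero sums. Low over zero was not called for any of the 3 (edgeR adjusted p between 0.532 and 0.815), so no difference from zero wells was shown. These genes were counted in 52, 117 and 76 of 750 zero wells and in 1, 2 and 1 of 41 low wells. Nxph1, which binds alpha-neurexins, was at 174, 143 and 214 CPM in high wells and 5.75, 22.5 and 34.1 CPM in low wells (3.36 ± 0.62, adjusted p = 0.0185).

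Lower in high than in low wells were connexin, growth factor and channel genes. Gjc1, a gap junction connexin, was at 1.14, 0 and 5.16 CPM in high wells and 138, 113 and 70.4 CPM in low wells (-5.04 ± 0.97, edgeR adjusted p = 0.024). Gdf11, a secreted ligand of the TGF-beta family, was at 2.27, 0 and 3.15 CPM in high wells and 132, 67.6 and 51.2 CPM in low wells (-4.84 ± 0.96, adjusted p = 0.0268). Ccdc141 fell by 4.45 on the log2 scale (SE 0.60, adjusted p = 0.00225) and Cbln1 differed by -3.27 ± 0.42 (adjusted p = 0.00182).
Kcnf1, a silent potassium channel subunit, was at 38.7, 26.5 and 26.1 CPM in high wells and 319, 169 and 111 CPM in low wells (-2.49 ± 0.49, adjusted p = 0.0268). Col25a1, a transmembrane collagen, was at 167, 63.5 and 39.0 CPM in high wells and 612, 417 and 315 CPM in low wells (-2.37 ± 0.34, adjusted p = 0.00302). The peptide gene Cck was at 484, 783 and 324 CPM in high wells and 983, 1453 and 1583 CPM in low wells (-1.29 ± 0.24, adjusted p = 0.0215). In the same fit Car4 was not called between high and low wells (-1.91 ± 0.52, adjusted p = 0.117).

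Low wells differed little from zero wells in this test. Of 12074 genes, Gal rose (0.00828%) and 1 gene fell (0.00828%), 2 in all (0.0166%), while 692 genes had an unadjusted p under 0.05. DESeq2 called 12. The median log2 fold change over all genes was -0.40.
Gal, the neuropeptide galanin, was at 423, 233 and 250 CPM in high wells, 486, 394 and 719 CPM in low wells and 91.9, 116 and 136 CPM in zero wells. Low over zero gave a log2 fold change of 2.16 ± 0.33 (n = 3 animals, edgeR adjusted p = 0.0221), and high over zero 1.44 ± 0.32 (adjusted p = 0.0336). The 2 comparisons share the zero wells, and high over low was not called (-0.71 ± 0.32, adjusted p = 0.412). All 3 sums of each C1ql2-positive class lay above all 3 zero sums. Sums did not overlap, in either direction, for 30.3% of all genes in high against zero wells and 20.1% in low against zero wells.
By C1ql2 level, Gal was counted in 219 of 750 wells at 0, in 21 of 30 under 100 CPM, in 9 of 11 from 100 to 200, in 9 of 10 from 200 to 400 and in 18 of 39 at 400 or more. Thinned to 5000 counts, it was found in 22 of 49 high, 25 of 41 low and 148 of 703 zero wells. The call of Gal in low wells was lost at a similar log2 fold change without animal 3 (2.00, adjusted p = 0.823), with the deeper zero wells (2.06, adjusted p = 0.163) and without wells that held 3 markers of another cell type (1.92, adjusted p = 0.555). It was lost at a smaller one where every class was limited to wells with a Car4 count (1.47, adjusted p = 1.00). In high wells it was lost without animal 2 (1.68, adjusted p = 0.0903), without animal 3 (1.69, adjusted p = 0.607), with the deeper zero wells (1.39, adjusted p = 0.111) and without wells that held 3 markers of another cell type (1.36, adjusted p = 0.152). It was lost at a smaller log2 fold change with the wells of 200 to 400 CPM left out (0.77, adjusted p = 0.35) and with the split at 400 CPM (0.84, adjusted p = 0.189).
With wells that held 3 oligodendrocyte markers left out, 1 gene was called, Gal.

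None of the 4 anteroventral markers was called between low and zero wells, and all 4 had a positive log2 fold change. Car4 was at 124, 180 and 197 CPM in low wells and 58.7, 121 and 78.6 CPM in zero wells (log2 fold change 0.95 ± 0.49, edgeR adjusted p = 0.886). Ccdc141 was at 227, 259 and 184 CPM in low wells and 141, 120 and 110 CPM in zero wells (0.80 ± 0.49, adjusted p = 0.886). Low sums lay above zero sums for both genes, as for 20.1% of all genes in either direction. Col27a1, a fibrillar collagen, and Npsr1, the neuropeptide S receptor, had log2 fold changes of 0.38 and 0.29 and were not called either.
Calb1, Calb2 and Necab1, 3 of the 4 anteromedial markers, had log2 fold changes of -3.29, -4.42 and -3.11 in low over zero wells, with adjusted p between 0.576 and 0.815.
As a description, since C1ql2 defined the classes, counts were also set per C1ql2 count. Per 100 C1ql2 counts, high wells held 6.21 Chrm1, 27.1 Sncg and 10.3 Megf11 counts. Low wells held 0 Chrm1, 3.36 Sncg and 6.71 Megf11 counts per 100 of their 149 C1ql2 counts, and 21.5 Slc17a7 counts, against 10.5 in high wells. These ratios rest on 0 to 32 counts per gene in the low wells and were not tested.

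Tissue sections gave a second measurement of the C1ql2-positive territory, in other tissue. Spots with at least 1 Slc17a6 and 1 Tcf7l2 count were taken as thalamic, which left 328, 224 and 336 spots in sections 2, 5 and 6, and 55, 25 and 41 of these held a C1ql2 count. A spot can hold several cells, and fewer cells of a type and less RNA per cell cannot be told apart there. C1ql2 stood at 181, 392 and 251 CPM in the C1ql2-positive spots of sections 2, 5 and 6. Their median depth was 11235, 6847 and 9096 counts, against 9364, 4942 and 6671 in C1ql2-zero spots, and the part of depth in the results was not tested.
With the section as a block, 57 genes rose (0.607% of 9393 tested) and 27 fell (0.287%), 84 in all (0.894%). The count was 3 without section 5, 220 without section 2 and 110 without section 6, and it was 3 without the block. With at least 2 C1ql2 counts asked of a positive spot, 522 genes were called.
Of the 82 genes that rose in high wells, 80 were tested in spots, where 19 rose and 0 fell. These 19 are 23.2% of the 82 and 33.3% of the 57. Of the 79 genes that fell in high wells, 75 were tested in spots, where 7 fell and 0 rose. These 7 are 8.86% of the 79 and 25.9% of the 27. The median log2 fold change in spots was 0.36 over the first set and -0.38 over the second, against -0.00 over all genes.

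**Figure D4:**
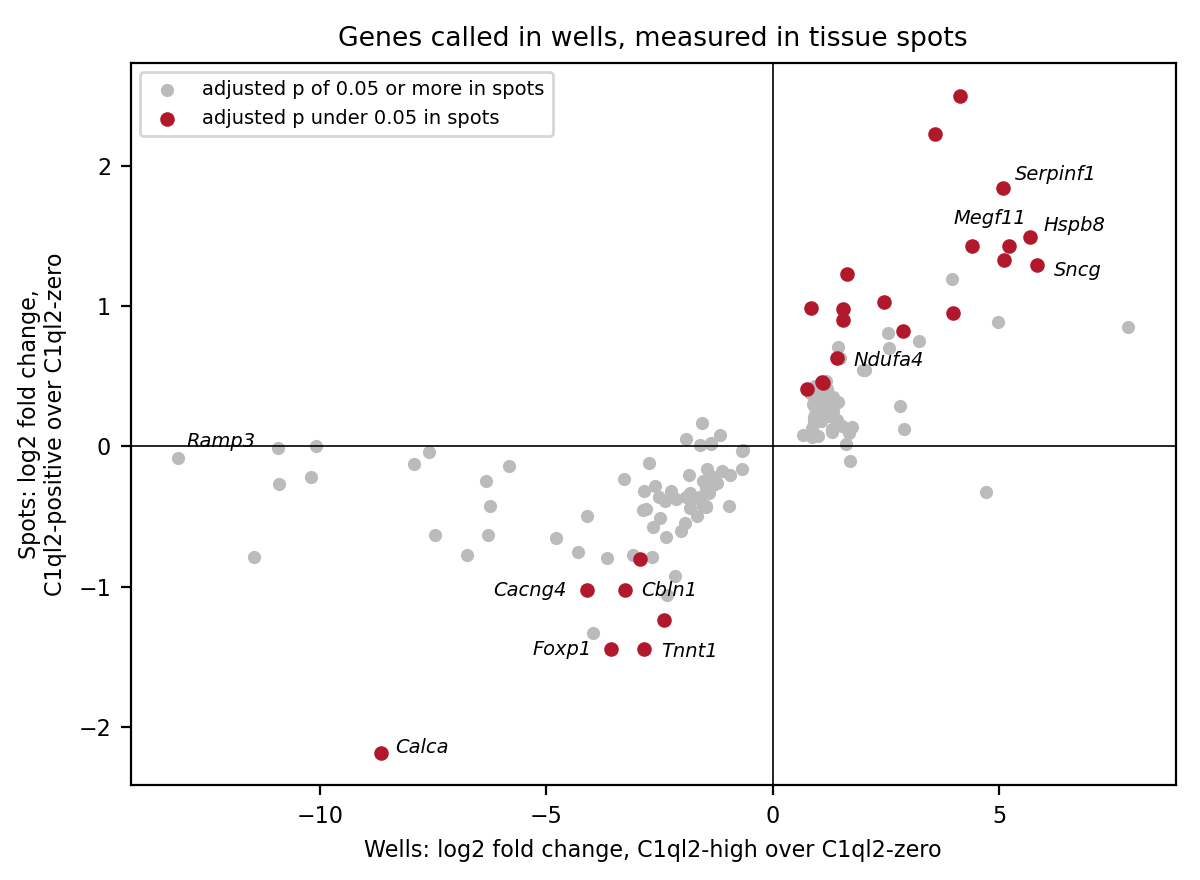
Log2 fold change in spots (C1ql2-positive over C1ql2-zero) against log2 fold change in wells (C1ql2-high over C1ql2-zero) for each gene called in the wells and tested in the spots. Red points passed an adjusted p of 0.05 in spots. The 19 red points on the right are positive on both axes and the 7 on the left are negative on both, while Ramp3, at -0.08 in spots, did not pass there.

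Sncg was at 53.6, 67.1 and 54.3 CPM in the C1ql2-positive spots of sections 2, 5 and 6 and 19.5, 18.4 and 31.8 CPM in C1ql2-zero spots (log2 fold change 1.29 ± 0.27, SE, n = 3 sections, edgeR adjusted p = 0.0123). Megf11 was at 39.4, 145 and 62.0 CPM in positive spots and 25.4, 29.1 and 21.8 CPM in zero spots (1.43 ± 0.28, adjusted p = 0.00724). Serpinf1 was at 20.5, 50.4 and 62.0 CPM in positive spots and 11.4, 17.4 and 7.60 CPM in zero spots (1.84 ± 0.38, adjusted p = 0.0114).
All 3 sections had the positive spots above the zero spots for these genes. Slc17a7 was at 199, 380.5 and 449.5 CPM in positive spots and 183, 114 and 194 CPM in zero spots (0.95 ± 0.18, adjusted p = 0.00705). Chrm1 was at 20.5, 44.8 and 54.3 CPM in positive spots and 21.4, 13.6 and 22.3 CPM in zero spots and was not called (0.85 ± 0.33, adjusted p = 0.326). Posterior section 2 had its positive spots below its zero spots for Chrm1.
Rspo3, a secreted Wnt enhancer named here because its fold change was the largest of the 19, was at 22.1, 89.5 and 36.2 CPM in positive spots and 5.16, 11.6 and 6.65 CPM in zero spots (2.50 ± 0.37, adjusted p = 0.000513). In wells Rspo3 was at 155, 169 and 200 CPM in the high class and 13.8, 9.33 and 7.43 CPM in the zero class.
Among the genes that fell, Cbln1 was at 78.8, 50.4 and 56.8 CPM in positive spots and 138, 150 and 124 CPM in zero spots (-1.02 ± 0.18, adjusted p = 0.00381). Foxp1 was at 37.8, 28.0 and 25.8 CPM in positive spots and 74.5, 119 and 95.5 CPM in zero spots (-1.44 ± 0.24, adjusted p = 0.00183). Gal was at 28.4, 11.2 and 23.3 CPM in positive spots and 22.1, 10.7 and 7.12 CPM in zero spots and was not called (0.71 ± 0.39, adjusted p = 0.577).
Of the 31 oxidative phosphorylation genes, Ndufa4 and Cox7a2 rose in spots, where 0.607% of all genes tested rose. All 31 were positive and their median was 0.31. The GABA neuron markers Gad1, Slc32a1, Sst and Pvalb, 4 of the 5 tested, fell in positive spots, where 0.287% of all genes tested fell. The part of these markers in the results was not tested. Gad1 stood at 44.1, 112 and 127 CPM in positive spots and 222, 181 and 133 CPM in zero spots.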

How the data were processed

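Single-cell wells and Visium spots were analysed from the deposited tables. Per the file headers, the deposited tables give raw, whole-number counts for each gene, by well in one and by spot in the other. The deposited well list gives the animal number and source of a well (other unit) and the spot list its section, per the file headers. The submitters' processing notes name Seurat and NCBIM37 for the wells, and Space Ranger, Seurat, NCBIM37 and mm10 for the sections. The aligner, and whether molecules or reads were counted, are not given in the sources used here.

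The members, gene lists and tests were chosen with earlier results of these data known. The 14 labelled cell samples could not be matched by name to plates, so the animal number served as the replicate. No doublet caller was run on the hand-picked cells, and no 2 Slc17a6-positive wells held identical counts. Of the wells used, 7 had a source recorded mainly under another animal. Counts were summed per animal and class (or section and class) and tested with edgeR 4.0.16 in R 4.3.3 (quasi-likelihood F test, TMM scaling, filterByExpr, animal or section as block, Benjamini-Hochberg adjustment). C1ql2 and Slc17a6 were left out of all calls, and Tcf7l2 of those in spots. Standard errors are the absolute log2 fold change over the square root of F. The block follows the design, since every class came from the same 3 animals. Residuals of sums from 1 animal correlated with a median of 0.0544, against -0.0238 for sums from different animals. The procedure was tested on simulated data. Thinning used numpy 2.4.6 and exact Clopper-Pearson intervals scipy 1.17.1. Figures used matplotlib 3.10.9.

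Genes were named by a rule. In each well comparison it took the 10 called genes with the greatest change each way, given a 1 log2 unit change or more, 20 CPM or more in the higher class and 3 of 3 animals moving alike. It added up to 4 genes per list, ranked by adjusted p, and a set of thalamic markers. Of these, the text gives the genes that bear on a comparison. Rspo3 was chosen after its values were seen. Some genes are not reported here.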

Additional observations from a re-analysis of the deposited data

Results flagged for a closer look

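Reporter sequences gave 22 counts in 10 of the 750 C1ql2-zero wells, against 0 in the C1ql2-high, C1ql2-low, blank, ERCC and qRNA wells, and no comparison uses these sequences. A C1ql2 count was found in 3 of 72 wells without an Slc17a6 count. It was also found in 2 of 56 qRNA wells, and in 0 of 16 blank wells (up to 18.8% by the limit for a count of 0) and 0 of 56 ERCC wells (up to 5.36%). No cause was tested for these values.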

How the results depend on the processing

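Main counts of called genes were 161 for high over zero, 2 for low over zero, 77 for high over low and 84 for spots. Without a filter on low counts they were 296, 27, 211 and 177, and with DESeq2 498, 12 and 404 in wells. Leaving out 1 animal gave 1 to 957, 1 to 21 and 1 to 757, and leaving out 1 section 3 to 220. Thinned wells gave 273 for high over zero and 7 for low over zero. Without wells of 3 markers of another cell type the counts were 35, 0 and 39, and at a C1ql2 cut of 100 CPM 51 for high over zero and 24 for high over low. A cut of 400 CPM gave 436 and 290, and leaving out wells of 200 to 400 CPM 301 and 196. Asking for 3 C1ql2 counts gave 687 for high over zero and 14 for low over zero, where the low class is 1 sum from animal 3, assumed to vary like the other sums, and deeper zero wells gave 80, 1 and 45. Without wells of 3 oligodendrocyte markers low over zero gave 1. Spots gave 3 with no replicate block and 522 with 2 C1ql2 counts asked. Without the block the wells gave 143, 2 and 53, of which 127, 2 and 49 were shared. The cause of these changes was not tested. In thinned wells, 1 count in 5000 equals the split of 200 CPM. By that construction the share of low wells, a mean of 4.45% over animals, became 0% after thinning, and the share of high wells, 6.56%, lay between 4.89% and 8.03% under its alternatives. Named genes that changed a call in a well comparison did so without turning direction. Leaving out wells of 200 to 400 CPM or of 3 oligodendrocyte markers, and limiting all classes to wells with a Car4 count, were chosen after seeing the data. Only 3 animals, and 4 low wells in animal 1, limit what low wells can show.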
